A study of Mus musculus with 18 samples.

Results

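Cd36 is 1 of 21887 protein-coding mouse genes in the RefSeq annotation, and it was examined across all 18 ChIP-seq peak lists of a study of mouse liver. Its span lies on chromosome 5 from 17781690 to 17888959 (build mm10), and the window used here adds 10 kb on each side, 127.27 kb in all. The study set livers of CTCF fl/fl Albcre+ mice (KO) against livers of CTCF fl/fl Albcre- mice (WT), all C57BL/6 at 8 weeks of age. PPARg and CTCF had 2 KO and 2 WT libraries each, H3K27ac had 3 and 3, and H3K4me3 and H3K27me3 had 1 and 1. Both genotypes carried the floxed alleles, and the Cre transgene is under the albumin promoter, which is active in hepatocytes. Which other liver cells of KO mice kept Ctcf is not shown by these data. The CTCF libraries and PPARg KO 7, KO 8 and WT 2 came from fasted males by tagmentation, and PPARg WT 4 and all histone libraries were made with a ligation kit from mice whose sex and feeding the labels do not state. Cd36 was selected on its measured KO and WT values, namely the base pairs covered by PPARg and H3K27ac peaks and an H3K27ac region called only in KO. These values are therefore given as a description, without tests.

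CD36 is a membrane glycoprotein, also called fatty acid translocase, that takes up long-chain fatty acids and oxidised lipoproteins. PPARg is a nuclear receptor that binds DNA as a partner of RXR at direct repeats of a short hexamer, and Cd36 is among its textbook targets in adipocytes and macrophages. CTCF is a zinc-finger protein of insulators and domain boundaries. H3K27ac marks active promoters and enhancers, H3K4me3 marks active promoters, and H3K27me3 marks genes silenced by Polycomb. Cd36 is read from the minus strand, so that higher coordinates lie upstream.

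The RefSeq promoter table gives 1 start site, at 17835896, near the middle of the span, and the span reaches 53063 bp further upstream. The annotation counts 12 Cd36 transcripts, whose own start sites were not used here, so that "promoter", "upstream" and "downstream" refer to this 1 site. The 250 bases before this start are shown because PPARg and H3K27ac peaks meet there (chr5:17835897-17836146, minus strand, build GRCm38.p6, from RefSeq). Capitals mark the stretches matched to the motifs named below, including the mismatched letters and the free base of the repeat.

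Cd36 promoter: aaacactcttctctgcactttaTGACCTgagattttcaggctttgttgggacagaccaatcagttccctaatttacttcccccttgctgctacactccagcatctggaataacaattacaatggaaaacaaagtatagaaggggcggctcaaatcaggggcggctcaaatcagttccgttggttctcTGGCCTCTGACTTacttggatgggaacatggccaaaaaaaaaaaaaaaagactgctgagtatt

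The first match is the hexamer AGGTCA, exact and on the opposite strand, which starts 228 bases before the start site. Of 32851 promoters of this length 14.0% held the hexamer on either strand. The second match is the direct repeat AGGTCANAGGTCA on the opposite strand with 2 mismatches among its 12 fixed letters, and it starts 63 bases before the start site. At most 2 mismatches were allowed, and 3.24% of the promoters held such a repeat on either strand. A hexamer can be part of a direct repeat, so the shares overlap. These matches describe the letters only.

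PPARg peaks covered 6.82 times as many base pairs of the Cd36 window in KO as in WT livers. The window held 12 peaks over 10764 bp in KO 7 and 11 peaks over 13175 bp in KO 8, against 5 peaks over 1912 bp in WT 2 and 4 peaks over 1599 bp in WT 4. The means were 11970 ± 1705 bp in KO and 1756 ± 221 bp in WT (SD, n = 2 each), or 9.40% and 1.38% of the window. Both KO values lay far above both WT values. That order alone is common, since 72.3% of the 10134 genes with a PPARg peak had it. The whole lists covered 2.63 times as many base pairs in KO, and 46.7% of these genes had both that order and a ratio above this. Divided by the ratio of the lists, the ratio of Cd36 was 2.59. Among 7291 genes with a PPARg peak in WT, 8.71% had a KO over WT ratio at least as high as that of Cd36. That share was 4.53% of 6395 genes without WT 4 and 4.30% of 6673 genes with lists of equal covered length. The median ratio over genes was 2.48 as reported, 2.08 without WT 4 and 0 with equal covered length. The last setting thus left most KO peaks out, and its share is not on the same footing.

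The peaks in KO were both more and wider. The number of peaks was 2.56 times higher in KO (11.5 against 4.5 per library), while the whole lists held 1.67 times as many. The mean peak at Cd36 was 1041 bp wide in KO and 390 bp in WT, against 779 bp and 495 bp over the whole lists. Of the base pairs covered in KO 7 and KO 8, 29.3% and 37.2% lay in regions without a WT peak, and the rest lay where WT livers had a narrower peak. Read depth is unknown here, and its part in the difference was not tested. The ratio was 6.26 without WT 4, the only PPARg library made with the ligation kit. With the 4 PPARg lists cut to equal covered length the window kept 1955 bp (KO 7) and 7265 bp (KO 8) against 1464 bp (WT 2) and 1599 bp (WT 4), a ratio of 3.01.

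**Figure D1:**
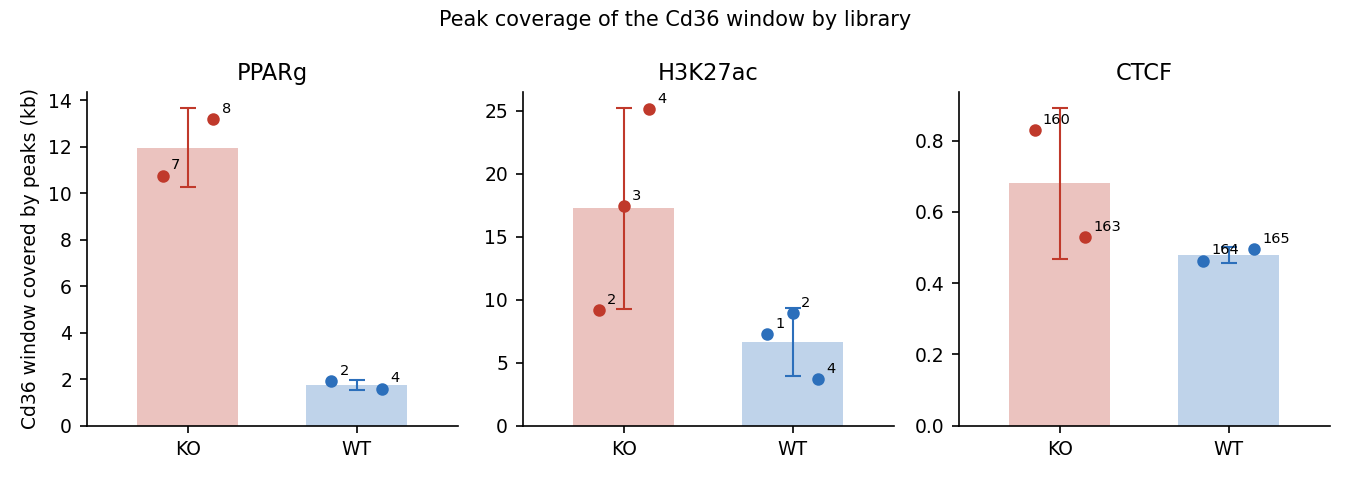
Kilobases of the Cd36 window covered by peaks of PPARg, H3K27ac and CTCF, by genotype. Points are libraries with their label numbers, bars are means and error bars are SD. The KO points of PPARg lie at 10.764 and 13.175 kb, above the WT points at 1.912 and 1.599 kb, and for H3K27ac the lowest KO point, at 9.183 kb, is close to the highest WT point, at 8.963 kb.

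Merged across the 4 libraries, the PPARg peaks formed 13 regions in the window. All 4 libraries called 4 of them, both KO and neither WT called 5, a single KO library called the other 4, and none was called in WT only.

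The strongest PPARg region lay 41.4 kb upstream of the start site, inside the span (17876060 to 17878482). Its fold enrichment over the caller's background was 45.1 in KO 7 and 39.3 in KO 8, against 20.2 in WT 2 and 12.4 in WT 4. Both KO values were above both WT values, and the 4 summits fell within 149 bp of each other. Ranked within its own list, this peak stood above 97.4% and 97.0% of peaks in KO and 94.2% and 90.1% in WT, so it was among the strong PPARg peaks of either genotype.

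The second region, 45.5 kb upstream (17880034 to 17882803), had folds of 17.0 in KO 7 and 19.1 in KO 8, against 9.03 in WT 2 and 7.06 in WT 4. It measured 2770 and 2656 bp in KO, whereas WT 2 had 2 short peaks and WT 4 had 1 there, 612 and 614 bp in sum. The third, 27.3 kb upstream (17862653 to 17863705), differed little, with folds of 8.82 and 8.94 in KO and 7.80 and 6.86 in WT.

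The promoter region (17834362 to 17836664) had the largest ratio of the 4. Its folds were 16.03 in KO 7 and 25.3 in KO 8, against 6.38 in WT 2 and 4.71 in WT 4. Within their lists these peaks ranked above 83.6% and 92.7% of peaks in KO and above 36.4% and 18.9% in WT. The KO peaks, 1725 and 2256 bp wide, contained the 250 bases printed above entirely. The WT peaks, 194 and 138 bp wide, reached 5 of those bases in WT 2 and none in WT 4. The summits lay 170 (KO 7), 5 (KO 8), 91 (WT 2) and 260 bp (WT 4) downstream of the start site.

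In all 4 shared regions both KO folds exceeded both WT folds. So did 67.5% of the 10131 PPARg regions that all 4 libraries called across the genome, where the median KO over WT fold ratio was 1.59. The ratio was 3.73 at the Cd36 promoter, 2.59 at 41.4 kb, 2.24 at 45.5 kb and 1.21 at 27.3 kb. Ratios at least that high were found in 4.66%, 16.1%, 23.9% and 72.7% of the shared regions, in the same order.

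**Figure D2:**
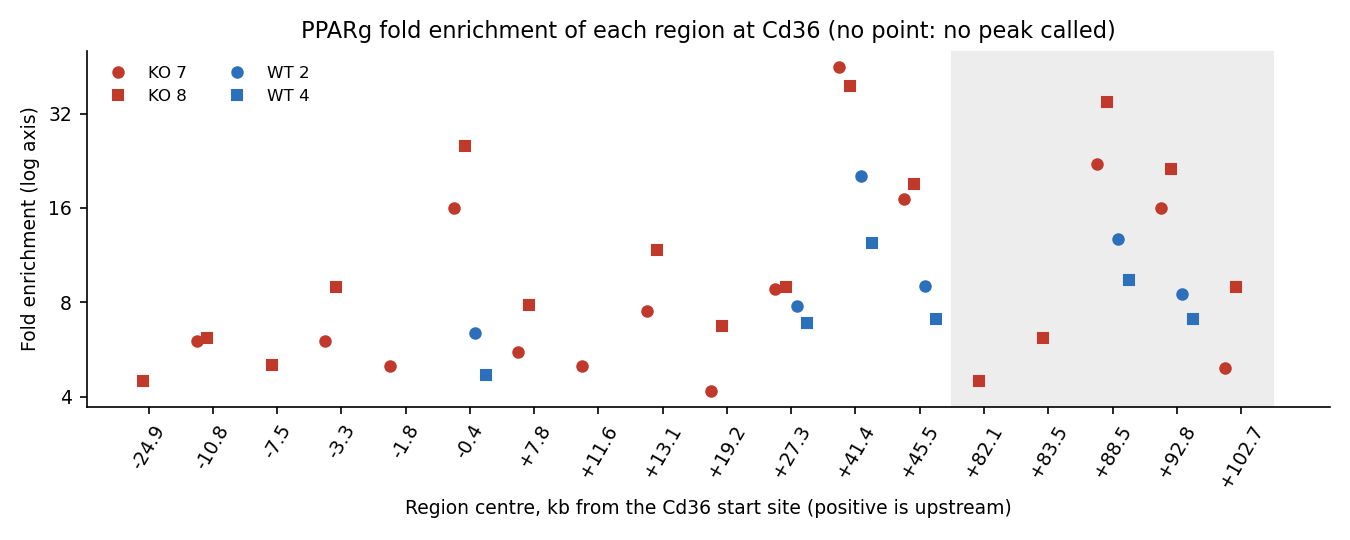
PPARg fold enrichment (log axis) of each merged region, by distance of its centre from the start site, with a point for each library that called a peak. Grey shading marks regions beyond the window. The promoter region and those at 41.4 and 45.5 kb carry the highest KO folds of the window, and 5 regions in the window have both KO points and no WT point.

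The 5 regions called in KO only were weaker. They lay 10.8 and 3.25 kb downstream of the start site and 7.80, 13.1 and 19.2 kb upstream of it. The region 13.1 kb upstream (17848162 to 17849737) was the strongest of them, with folds of 7.51 in KO 7 and 11.8 in KO 8, and the other 4 had 4.18 to 8.98. Their mean KO folds stood above 27.6% to 89.9% of the 6070 KO-only regions of the genome. Among genes with a PPARg peak, 41.4% had at least 1 KO-only region in their window, and 0.592% had 5 or more. The count is not divided by window length, and among the named genes Acsl1, Cidec and Ppara had 5 KO-only regions as well, in windows of 85015, 31127 and 91942 bp. With lists of equal length the count at Cd36 fell to 1, and with lists of equal covered length to 0. Without KO 8 the count was 8, and without KO 7 it was 7, where a call in 1 KO library was enough.

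H3K27ac covered 9183 (KO 2), 17414 (KO 3) and 25147 bp (KO 4) of the window in KO, against 7265 (WT 1), 8963 (WT 2) and 3705 bp (WT 4) in WT. The means were 17248 ± 7983 bp in KO and 6644 ± 2683 bp in WT (SD, n = 3 each), a ratio of 2.60 where the whole lists had 1.16. The groups did not overlap, but the lowest KO value, of KO 2, lay just above the highest WT value, of WT 2. Of 15514 genes with an H3K27ac peak, 10.7% had all KO values above all WT values, 10.1% had this and a ratio above that of the lists, and 1.41% had all KO values below all WT values. A ratio at least that of Cd36 was found in 4.85% of the 14743 genes with a peak in WT. KO 4, whose list covered 126 Mb against 78.2 to 91.5 Mb in the other 5, had the highest value, and without it the ratio was 2.00. With all lists cut to equal covered length the KO values were 9183, 15207 and 8126 bp and the WT values 4329, 6156 and 3705 bp.

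**Figure D3:**
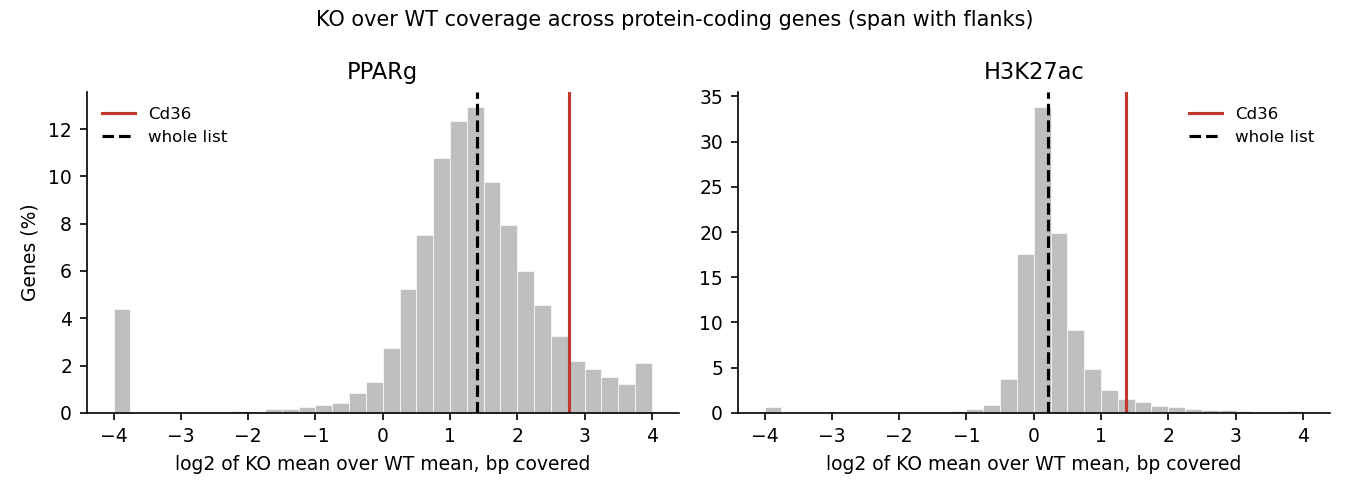
Share of genes by the log2 ratio of mean KO over mean WT base pairs covered, for PPARg and H3K27ac, over genes with a WT peak. The end bins hold all genes beyond the axis, the red line marks Cd36 (ratios of 6.82 and 2.60) and the dashed line the whole lists (2.63 and 1.16).

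The H3K27ac peaks formed 14 regions in the window, of which all 6 libraries called 3 and all KO and no WT called 1. Of the other 10, KO 4 alone called 4. The highest H3K27ac folds coincided with the strongest PPARg region. In the H3K27ac region 41.3 kb upstream (17875485 to 17878953) the folds were 6.26 (KO 2), 5.67 (KO 3) and 6.22 (KO 4), against 4.43 (WT 1), 4.57 (WT 2) and 4.59 (WT 4). These KO peaks ranked above 93.7%, 93.7% and 96.5% of the peaks of their lists, and the WT peaks above 74.3%, 76.0% and 74.0%. The gap between the genotypes was wider than the range within either of them.

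The neighbouring H3K27ac region at 45.6 kb (17879173 to 17883809) had folds of 4.30, 3.91 and 3.34 in KO and 3.104, 3.12 and 2.92 in WT, again without overlap. Of the 22736 H3K27ac regions called in all 6 libraries, 4.57% had every KO fold above every WT fold. A KO over WT ratio as high as 1.33, the value at 41.3 kb, was reached by 0.0792% of them, and one as high as 1.26, the value at 45.6 kb, by 0.268%. At the promoter (17833591 to 17837521) the H3K27ac folds overlapped, with 3.09, 3.49 and 3.74 in KO and 3.50, 3.26 and 3.604 in WT, and the ratio of their means was 0.996. Peaks of all 6 H3K27ac libraries covered the 250 bases printed above.

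**Figure D4:**
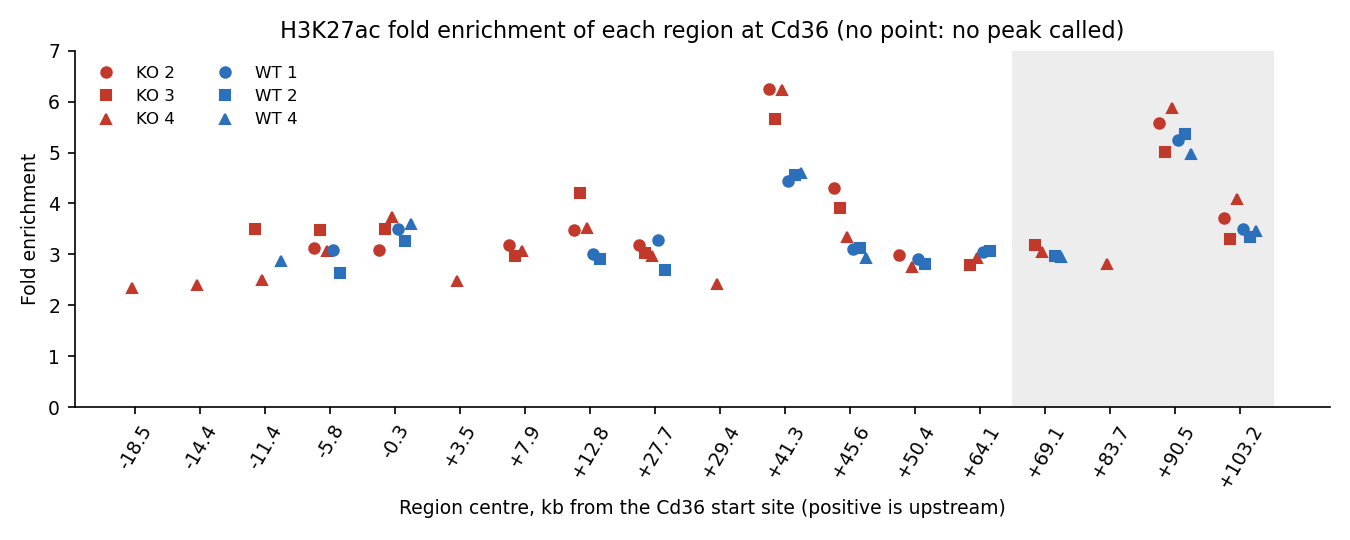
H3K27ac fold enrichment of each merged region, by distance of its centre from the start site, with a point for each library that called a peak. Grey shading marks regions beyond the window. KO and WT points separate at 41.3 and 45.6 kb and overlap at the promoter.

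The H3K27ac region called in KO only lay 7.87 kb upstream (17842973 to 17844550). It measured 402, 867 and 1578 bp in KO 2, KO 3 and KO 4, with folds of 3.17, 2.97 and 3.06, and no WT library had a peak there. Of genes with an H3K27ac peak, 3.1% had such a region in their window. One of the 5 KO-only PPARg regions, at 7.80 kb, lay on it. Genome-wide, 1.17% of KO-only PPARg regions overlapped H3K27ac peaks in all 3 KO and no WT library.

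The other KO-only PPARg regions differed in their acetylation. The region 13.1 kb upstream overlapped H3K27ac peaks of all 3 KO and of 2 WT libraries. The H3K27ac peaks there had folds of 3.48, 4.21 and 3.53 in KO 2, KO 3 and KO 4, and 3.00 and 2.91 in WT 1 and WT 2. The 3 KO-only PPARg regions at 10.8 and 3.25 kb downstream and 19.2 kb upstream overlapped no H3K27ac peak of any library. Over the genome 79.4% of KO-only PPARg regions overlapped one. The downstream PPARg regions lay close to H3K27ac regions all the same. The one at 10.8 kb began at 17824928, and an H3K27ac region called in KO 3, KO 4 and WT 4 ended at 17824838. The one at 3.25 kb (17832110 to 17833177) lay between H3K27ac regions that ended at 17831812 and began at 17833591.

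H3K4me3 gave a single weak peak at Cd36. KO 4 had 379 bp (17835261 to 17835639) with a fold of 3.77, and WT 2 had none. The peak lay just downstream of the start site, its summit 372 bp from it, and ranked above only 9.29% of the peaks of its list. Of 13800 genes with an H3K4me3 peak, 4.66% had one in KO only and 1.56% in WT only. There was 1 library a genotype, so no replicate check exists. No H3K27me3 peak was called in the window in either genotype, as at 17730 of the 21887 genes. Of the 4157 genes (19.0%) with such a peak, 22.8% had one in KO only and 15.6% in WT only.

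**Figure D5:**
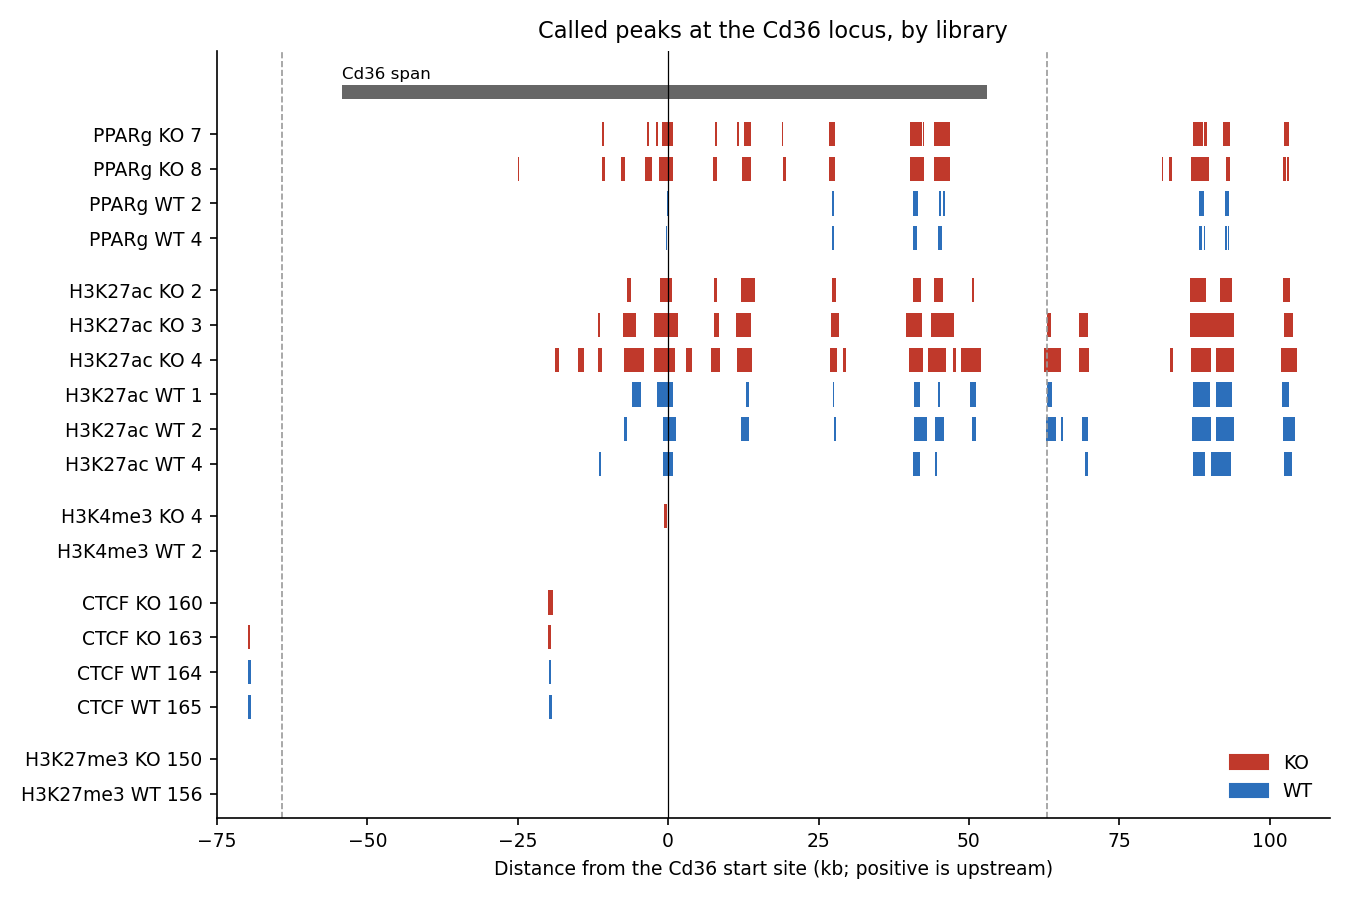
Called peaks at Cd36 by library, with distance from the start site in kb (positive is upstream), KO in red and WT in blue. The grey bar is the Cd36 span and dashed lines bound the window. Most PPARg and H3K27ac peaks of the window lie between the promoter and 45.6 kb upstream, and the only CTCF region in the window lies 19.6 kb downstream in all 4 libraries.

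A single CTCF region, 19.6 kb downstream of the start site and inside the span (17815925 to 17816754), was called in all 4 libraries. Its folds were 6.63 in KO160 and 8.31 in KO163, against 6.49 in WT164 and 7.26 in WT165, so the groups overlapped, and the summits lay within 24 bp. Of CTCF regions called in all 4 libraries, 3.4% had both KO folds above both WT folds and 50.1% had both below. Their median KO over WT fold ratio was 0.799. At Cd36 it was 1.09, and 8.27% of the shared regions had a ratio at least that high. The Cd36 region covered 830 and 530 bp in KO and 463 and 495 bp in WT, a ratio of 1.42 where the whole lists had 0.756. Of 13306 genes with a CTCF peak, 3.83% had both KO values above both WT values, and 37.3% had both below. It was a weak site, above 34.4% and 49.4% of the KO peaks and 30.2% and 35.2% of the WT peaks of the lists. No PPARg or H3K27ac peak overlapped it.

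The nearest CTCF site below the window lay 15.2 kb from the span (17765974 to 17766509). It had folds of 6.09 in KO163, 11.4 in WT164 and 8.94 in WT165, and KO160 had no peak there. On the upstream side the nearest CTCF site was about 154 kb from the span, with folds of 13.3 and 13.9 in KO and 13.0 and 12.8 in WT.

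Other genes of the fatty acid pathways were read in the same way. Of the 24 genes of a list of fatty acid uptake and activation, 20 (83.3%) had a PPARg peak, beside 46.3% of all genes. Of these 20, 16 (80%) had both KO values above both WT values, beside 72.3% of all genes with a PPARg peak. Their median KO over WT ratio was 2.71, beside 2.48 over all genes. Among the 15 of them with a peak in WT, Cd36 had the highest PPARg ratio, but Cd36 was selected on its PPARg coverage. Slc27a5, a bile acid and very long chain acyl-CoA ligase of hepatocytes, had 5603 and 5289 bp in KO 7 and KO 8, against 1504 and 811 bp in WT 2 and WT 4, a ratio of 4.70. Slc27a2, a fatty acid transporter of the same family, had a ratio of 2.42, Acsl1, which activates fatty acids with coenzyme A, had 2.71, and the carrier Fabp1 had 3.01.

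An H3K27ac peak was found at 21 of the 24 genes of that list (87.5%, beside 70.9% of all genes). Of these 21, 1 had all KO above all WT values (4.76%, beside 10.7% of all genes with such a peak). That gene was Cd36 itself, which was selected on its H3K27ac values. The median ratio was 1.09, beside 1.14 over all genes. A ratio at least that of Cd36 was found in 2 genes of the list, Cd36 included. Acsl1 (1.001), Slc27a2 (1.06), Slc27a5 (1.002) and Fabp1 (0.889) had H3K27ac ratios near 1. The list of 30 PPARg target and fat storage genes also holds Cd36. A PPARg peak was found at 28 of its 30 genes (93.3%, beside 46.3% of all genes). Of these 28, 26 (92.9%) had both KO above both WT values, beside 72.3% of all genes with such a peak. Their median ratio was 2.101, below the 2.48 of all genes. An H3K27ac peak was found at 29 of its 30 genes (96.7%, beside 70.9% of all genes). Of these 29, 3 (10.3%) had all KO above all WT values, beside the 10.7% of all genes. Their median ratio was 1.09, and 2 of them, Cd36 included, had a ratio at least that of Cd36. The lipid droplet gene Cidec had a PPARg ratio of 3.56 and an H3K27ac ratio of 1.03. The lipid droplet coat gene Plin2 had 1.36 and 1.07, and the fatty acid carrier Fabp4 had 1.79 and 1.09. Pparg itself had ratios of 2.46 and 1.02, and Angptl4, an inhibitor of lipoprotein lipase, 2.08 and 1.04. Among the 26 genes of fatty acid oxidation the median ratios were 2.12 for PPARg and 1.02 for H3K27ac, beside 2.48 and 1.14 over all genes. All 26 had a PPARg peak, beside 46.3% of all genes, and an H3K27ac peak, beside 70.9%. All 26 had both KO above both WT values for PPARg, beside 72.3% of all genes with a PPARg peak. For H3K27ac 1 (3.85%) had all KO above all WT values, beside 10.7% of all genes. The PPARg order was also common among cell type markers with a PPARg peak. It held for 14 of 15 hepatocyte (93.3%) and 9 of 10 adipocyte markers (90%). It held for 7 of 10 endothelial (70%), 3 of 5 Kupffer cell (60%) and 0 of 2 stellate cell markers. The nuclear receptor gene Ppara had ratios of 2.16 and 0.923, and Cpt1a, which brings fatty acids into mitochondria, had 1.88 and 1.05.

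By their 18 values of log2(bp covered + 100), the genes most like Cd36 were Cyp17a1, Mogat2, Fam47e, Lama3 and Thrsp, at Euclidean distances of 3.35 to 3.71, against a median of 14.1 over all genes. Their mean PPARg coverage was 3481 to 6432 bp in KO and 1069 to 1998 bp in WT, less than that of Cd36 in KO. For H3K27ac, Cyp17a1, a steroid hydroxylase, had 14663 bp in KO and 13561 bp in WT. Mogat2, which makes diacylglycerol, had 12135 bp in KO and 10683 bp in WT. Thrsp, a lipogenic factor, had 10369 bp in KO and 10129 bp in WT. Their H3K27ac means thus lay nearer each other than the 17248 and 6644 bp of Cd36, which was selected on its H3K27ac coverage.

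Since Cd36 is also expressed by macrophages, endothelium and adipocytes, markers of the cells of liver were read in the same H3K27ac lists. In whole liver a change in the share of a cell type and a change of the mark per cell cannot be told apart. All 15 hepatocyte markers had peaks, which summed to 231 to 263 kb in KO and 230.4 to 268 kb in WT, and none had all KO above all WT values while 1 had all KO below. Of all genes 70.9% had an H3K27ac peak, and in 10.7% of those with a peak all KO lay above all WT values. Of 15 stellate cell markers, 14 had a peak and 6 (42.9% of these) had all KO above all WT values, with sums of 53.9 to 117 kb in KO and 28.8 to 54.8 kb in WT, and Timp1 was at 0 in every library. The same order held for 1 of 14 Kupffer cell markers with a peak, of 15 (7.14%, 27.1 to 72.0 kb in KO, 18.3 to 56.9 kb in WT, Marco at 0) and 1 of 15 endothelial markers (6.67%, 197 to 330 kb in KO, 206 to 241 kb in WT, none at 0). It held for 1 of 10 adipocyte markers (10%, 49.3 to 71.7 kb in KO, 50.8 to 57.2 kb in WT, none at 0). The part of these cells in the Cd36 values was not tested.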

How the data were processed

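The files were 18 peak lists, 1 per library, and no reads, so depth is unknown: 15520 to 27439 peaks for PPARg, 34324 to 51311 for H3K27ac, 18597 to 27585 for CTCF, 16341 and 17402 for H3K4me3 and 8131 and 9216 for H3K27me3. The submitters' processing notes name deepTools 3.1.3, the caller MACS2 2.1.2, the aligner BWA 0.7.12, Picard 1.77, and mm10 as the genome. The control for peak calling is not given in the sources used here. The authors deposited for each peak a fold enrichment (a ratio over background), a −log10 p, a −log10 q and a score, and the score was not used. The lowest deposited −log10 q was near 1 for H3K27ac and H3K27me3, near 1.31 for H3K4me3 and PPARg WT 4, and near 3 for the others. The growth protocol of the ligation-kit libraries describes neural stem cells, although their tissue is given as liver.

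Peaks on the X, the Y and the autosomes entered, and intervals listed once per summit were collapsed. Covered base pairs were counted in the RefSeq span with 10 kb each side, for Cd36 and each other protein-coding gene with a symbol of its own, in Python 3.11.15 (checked on simulated intervals). Peaks of 1 target that shared 1 bp or more formed a region. Percentiles are ranks of fold within a list. Of 162 entries in 9 gene lists, all matched a symbol, 1 by synonym. The result of 1 marker list is not reported here. Cd36, the lists and the named genes were chosen with earlier results of these data known. Named genes were Cd36, its neighbours, 11 list members and the 5 genes most like it. Alternatives were other windows, stricter q, equal lists, scaling by list, and leaving out libraries. No test was run.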

Additional observations from a re-analysis of the deposited data

How the results depend on the processing

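PPARg coverage of Cd36 stayed higher in KO in each alternative tried, with a KO over WT ratio of 6.82 as reported. The ratio was 5.09 with 50 kb each side, 8.60 with only peaks of −log10 q of 10 or more, 5.86 with lists of equal length, 3.01 with lists of equal covered length, 2.57 after division by the base pairs of each list and 2.56 for the number of peaks. Leaving out 1 library gave 6.13 to 7.50, and the 3 libraries of 1 kit gave 6.26. The count of KO-only PPARg regions, 5, became 1 when lists had equal length and 0 when they covered equal length, and ranged from 5 to 8 without 1 library. For H3K27ac the ratio of 2.60 ranged from 2.00 to 3.203 without 1 library and from 1.6 to 4.20 in the other alternatives. The groups did not stay apart in all of them. With 50 kb each side KO 2 had 14647 bp, below the 18846 bp of WT 2. At a −log10 q of 3 or more KO 2 had 2786 bp, below the 4341 bp of WT 2. By number of peaks KO 2 tied with WT 1 and WT 2 at 8. The count of 1 KO-only H3K27ac region did not change in the alternatives run for it, but a stricter q was not run. Leaving out a library loosens the rule for a KO-only region, so those runs could hardly lower this count or that of PPARg. Cd36 was also selected partly on this H3K27ac region. The −log10 q of that region was 2.07 in KO 2, 1.58 in KO 3 and 3.21 in KO 4. The share of genes with a ratio at least that of Cd36, under settings chosen after seeing the data, was for PPARg 6.44% with lists of equal length, 4.30% with equal covered length and 4.53% without WT 4, and for H3K27ac 3.599%, 2.33% and, without KO 4, 4.10%. With equal covered length the median PPARg ratio over genes was 0, against 2.48 as reported. The CTCF ratio of 1.42 turned to 0.922 with 50 kb each side, which takes in the site below the window. It was 1 for the number of peaks, 2.75 with lists of equal length, 1.87 after division by the list and 1.11 to 1.73 without 1 library, and at a −log10 q of 10 or more only the 530 bp peak of KO163 was left, with none in KO160 or either WT library. The H3K4me3 difference of 379 bp was 1 peak, 19.9 bp per Mb covered, or 0 at a −log10 q of 3 or more. Causes were not tested beyond what each setting does.

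H3K27ac libraries numbered 2 and 4 exist in both genotypes. With that number as a block the ratio was 2.64, from 1.02 for number 2 and 6.79 for number 4. Over genes, the deviations of same-numbered libraries from the mean of their genotype had correlations of −0.298 and −0.258. Each mean holds only 3 libraries, so deviations within a genotype depend on each other. The check therefore cannot tell whether a shared number means a shared batch.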

Other observations

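Beyond the upstream edge of the window lay a group of strong regions, chosen for mention after its values were seen. At 88.5 kb upstream of the start site (17922900 to 17925804) the PPARg folds were 22.0 in KO 7 and 34.8 in KO 8, against 12.8 in WT 2 and 9.41 in WT 4. At 92.8 kb (17928200 to 17929253) they were 16.03 and 21.3 in KO, against 8.50 and 7.06 in WT. The KO over WT ratios of 2.57 and 2.401 were close to those inside Cd36 at 41.4 and 45.5 kb. The H3K27ac region there was wide, at 7354 bp in all, and had folds of 5.58, 5.02 and 5.87 in KO against 5.24, 5.36 and 4.97 in WT. Its folds thus overlapped between genotypes, unlike those at 41.3 kb. These regions lie between Cd36 and Gnat3, a taste receptor G protein subunit whose span begins 73.6 kb from that of Cd36. A further PPARg region at 103 kb (17938153 to 17939070), inside the long non-coding RNA gene Gm31612, was called in KO only, with folds of 4.93 in KO 7 and 8.98 in KO 8.

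The next gene on the other side, Sema3c, which encodes a secreted guidance protein, lies 51.4 kb from Cd36. Its window held no peak of PPARg, H3K27ac, CTCF or H3K4me3 in any library. H3K27me3 covered 1827 bp of it in KO150 and 449 bp in WT156, where Cd36 had none.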
